A study of Homo sapiens with 6 samples.

Results

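The nuclear pore complex genes are 30 genes that encode the building blocks of the channels through the nuclear envelope. Members were found as probe sets whose annotation named 1 of these symbols and no other gene, keeping for each gene the probe set with the highest mean over all 6 arrays. This gave 27 of the 30 genes, out of 18417 genes measured in the same way. The probe sets of the other 3, NUP62, POM121 and AHCTF1, also named further genes and are described apart. Expression was measured on 1-colour arrays in RPMI 8226, an established human multiple myeloma cell line. Irradiated cells had received 6 Gy of C-ions, a densely ionising particle beam, and unirradiated cells 0 Gy, and RNA was taken 1 day after irradiation from both, with 3 arrays per dose. All samples are of 1 cell line grown in the same medium. Nothing in the labels tells whether the 3 samples of a dose came from separate cultures, so the spread behind each p-value may be technical.

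The pore is a ring-shaped assembly of many copies of each nucleoporin. Its scaffold consists of outer rings made of the Y complex and an inner ring, held in the membrane by pore membrane proteins. Nucleoporins with phenylalanine-glycine (FG) repeats fill the channel and bind transport receptors, filaments on the cytoplasmic face release exported mRNA, and a basket hangs into the nucleus. In cells that divide, pores are taken apart at mitosis and rebuilt around the new nuclei, and new pores are also inserted during interphase.

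Of the 27 measured members, 4 were lower in irradiated cells and 0 were higher at a Benjamini-Hochberg adjusted p under 0.05 in limma, which was fitted over all 18417 genes. They were NUP210, TPR, NUP85 and AAAS, with 1.55-fold, 1.44-fold, 1.40-fold and 1.19-fold less signal. Across all genes 8.18% were called lower and 6.35% higher, 14.5% in all, and the members' share of 14.8% called in either direction is near that background. Without unirradiated replicate 2 the number of all genes called lower fell to 852, against 1507 with all arrays, and the number of members to 3. At an unadjusted p under 0.05 there were 6 lower and 3 higher members, 33.3% of the 27 beside 29.8% of all genes. The members' median log2 difference, irradiated minus unirradiated, was -0.03, beside 0.04 over all genes. It was 0.01 without irradiated replicate 1. In RNA from a bulk culture, fewer cells holding a transcript and less of it per cell cannot be told apart.

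**Figure D1:**
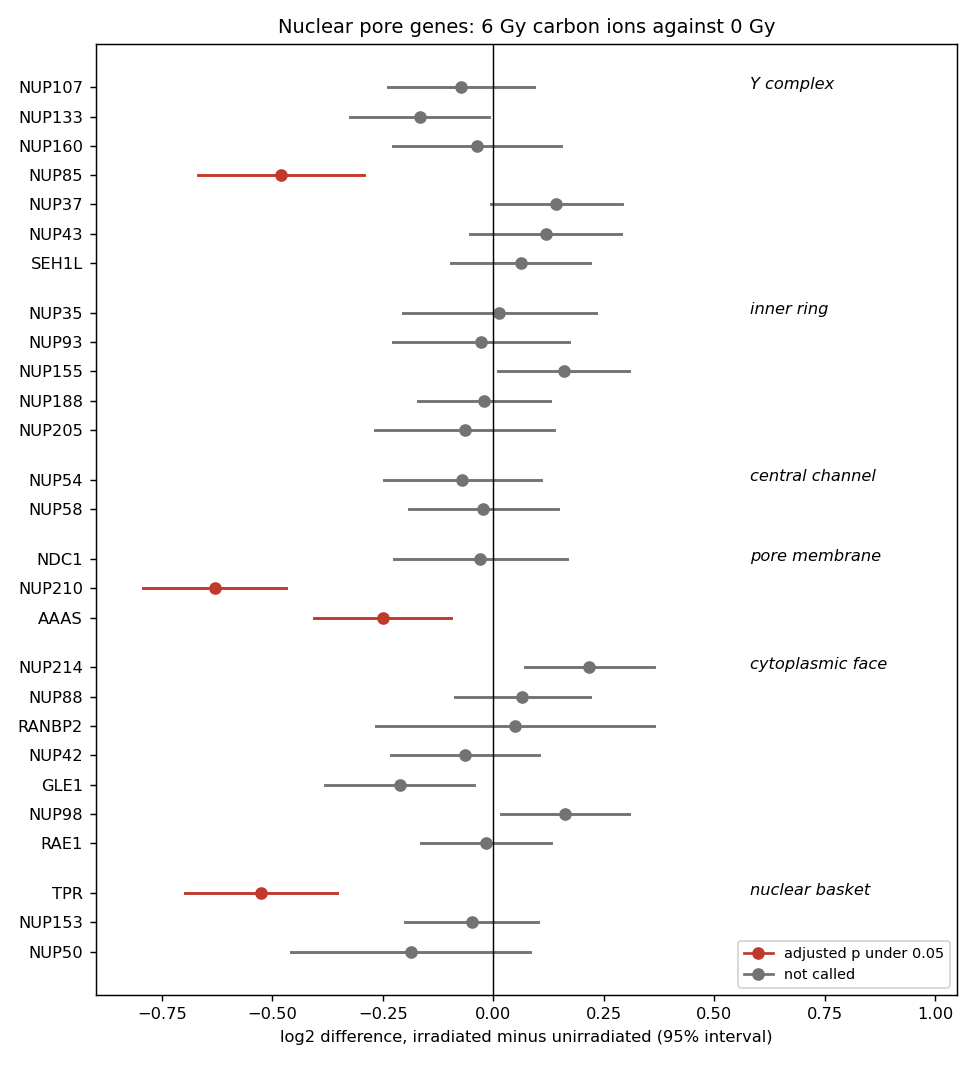
Log2 difference between irradiated (6 Gy) and unirradiated (0 Gy) cells for the 27 members, ordered by their place in the pore. Points are limma estimates from 3 arrays per dose, lines are 95% intervals, and red marks the 4 members with an adjusted p under 0.05, which all lie left of 0.

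The promoters of the 4 genes that fell are shown because these were the members called, and that of NUP107, a Y complex gene with no call, is shown for contrast. Each is the 250 bases upstream of the gene's RefSeq start in GRCh38.p14, 5′ to 3′ on the gene's strand: chr3:13420323-13420572 on the minus strand for NUP210, chr1:186375254-186375503 on the minus strand for TPR, chr17:75205429-75205678 on the plus strand for NUP85, chr12:53321611-53321860 on the minus strand for AAAS and chr12:68686728-68686977 on the plus strand for NUP107. Capitals mark matches, on either strand, to any of 9 motifs: CCGGAAG of ETS factors, the NRF1 palindrome, CCAAT of NF-Y, GGGCGG of SP and KLF factors, the CRE TGACGTCA, the E-box CACGTG, the CHR TTTGAA, TTTCGCGC of E2F and TGATGCAA of ATF4.
NUP210: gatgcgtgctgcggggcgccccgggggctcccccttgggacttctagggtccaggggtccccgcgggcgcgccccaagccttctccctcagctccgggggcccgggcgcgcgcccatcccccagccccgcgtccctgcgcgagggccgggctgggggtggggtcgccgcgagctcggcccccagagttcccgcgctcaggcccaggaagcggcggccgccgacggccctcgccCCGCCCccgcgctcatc
TPR: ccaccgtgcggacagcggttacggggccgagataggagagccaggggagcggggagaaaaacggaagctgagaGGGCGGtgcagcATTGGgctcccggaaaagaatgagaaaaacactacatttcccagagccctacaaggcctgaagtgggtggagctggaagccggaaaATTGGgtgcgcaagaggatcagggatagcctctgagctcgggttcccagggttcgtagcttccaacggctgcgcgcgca
NUP85: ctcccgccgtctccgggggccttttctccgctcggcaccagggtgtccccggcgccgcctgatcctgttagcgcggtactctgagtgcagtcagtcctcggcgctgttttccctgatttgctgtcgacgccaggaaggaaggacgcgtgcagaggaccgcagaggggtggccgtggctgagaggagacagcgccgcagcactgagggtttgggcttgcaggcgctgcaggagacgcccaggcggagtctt
AAAS: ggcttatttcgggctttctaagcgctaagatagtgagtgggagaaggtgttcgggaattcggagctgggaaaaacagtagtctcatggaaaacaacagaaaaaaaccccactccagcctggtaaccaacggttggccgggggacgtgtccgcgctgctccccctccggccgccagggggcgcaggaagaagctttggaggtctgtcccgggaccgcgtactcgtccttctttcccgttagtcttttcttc
NUP107: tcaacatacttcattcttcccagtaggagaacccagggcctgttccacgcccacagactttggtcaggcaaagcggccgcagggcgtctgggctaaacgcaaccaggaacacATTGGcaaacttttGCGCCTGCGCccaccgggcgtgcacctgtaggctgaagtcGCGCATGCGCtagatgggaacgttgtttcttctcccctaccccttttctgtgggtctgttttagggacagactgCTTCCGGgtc

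The 4 genes that fell shared few matches. Counting back from -1, the base next to the start, in NUP210 the 1 match was GGGCGG, read on the opposite strand, from -17 to -12. TPR held GGGCGG and 2 copies of CCAAT on the opposite strand, whereas NUP85 and AAAS held none of the 9 motifs. NUP107 held CCGGAAG from -10 to -4 and CCAAT from -138 to -134, both on the opposite strand. It also held the NRF1 letters at 2 places, and no matches overlapped in any of the 5 windows. Promoters were given for 27 of the 30 listed genes, some with several starts, and a gene was counted where any of its windows held a motif. These are not the 27 measured members, as NUP62 and POM121 are among them and NUP43 and GLE1 are not. The ETS letters stood in 11 of the 27 (40.7%), beside 10.2% of 27305 genes with a promoter, and the NRF1 letters in 4 (14.8%), beside 6.20%. This background includes genes outside the 18417 measured, and no background of measured or similarly bright genes was used. CCAAT was found in 37.0% of both sets and GGGCGG in 48.1% of pore genes, beside 46.2% of all. Of the 11 pore genes with the ETS letters, 10 were measured and 0 were called by limma, beside 14.5% of all genes. Among these 10, 1 had an unadjusted p under 0.05 in limma (NUP214), beside 29.8% of all genes. A match is a description of the sequence and not a binding site, and no difference between these small groups was tested.

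In the pore membrane group, 2 of 3 measured members fell in limma, beside 8.18% of all genes called lower. A group of 3 genes is too small to read this as a trait of the group. It held the member with the largest difference. NUP210 encodes a glycoprotein that spans the membrane and whose bulk lies in the lumen around the pore. Its log2 intensities were 9.86, 9.89 and 9.95 in irradiated cells, against 10.59, 10.58 and 10.42 in unirradiated cells. The 2 groups lay far apart relative to their spread, with a difference of -0.63 ± 0.07 (SE) and a limma adjusted p of 5.36e-04. AAAS encodes ALADIN, which is anchored at the pore by NDC1 and is mutated in triple A syndrome. Its values were 10.55, 10.64 and 10.48 in irradiated cells, against 10.81, 10.82 and 10.77 in unirradiated cells. They did not overlap, and the difference was -0.25 ± 0.07 (SE) with a limma adjusted p of 0.0381. This call ended when any array other than irradiated replicate 2 was left out, with adjusted p of 0.0900 and 0.0949 without irradiated replicates 1 and 3 and of 0.109, 0.118 and 0.0739 without unirradiated replicates 1, 2 and 3. It also ended in the fit over all 33297 probe sets (adjusted p 0.0817), where NUP210, TPR and NUP85 passed with 0.00483, 0.0132 and 0.0253. NDC1, the multi-pass anchor itself, had 10.62, 10.85 and 10.63 in irradiated cells, against 10.61, 10.83 and 10.74 in unirradiated cells, so its groups overlapped throughout.

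TPR forms the coiled-coil filaments of the nuclear basket, a docking place for mRNA export factors that also keeps dense chromatin away from the pore. Its log2 intensities were 8.71, 8.47 and 8.52 in irradiated cells, against 9.11, 9.11 and 9.06 in unirradiated cells. The difference was -0.53 ± 0.08 (SE), with a limma adjusted p of 0.00217, and every irradiated array lay below every unirradiated one. NUP153, which ties the basket to the pore and binds importins through FG repeats, had 10.77, 10.73 and 10.75 in irradiated cells, against 10.87, 10.74 and 10.79 in unirradiated cells. Its difference of -0.05 had a 95% interval from -0.20 to 0.10. NUP50, a mobile basket protein that helps to release cargo from importin alpha, had widely spread values of 7.57, 7.56 and 7.89 in irradiated cells, against 8.04, 7.62 and 7.92 in unirradiated cells. Its interval, from -0.46 to 0.08, was among the widest of the members.

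The Y complex, the scaffold of the outer rings, had 1 called gene among 7 measured (14.3%), near the 14.5% of all genes called. NUP85, a structural member of its short arm, had log2 intensities of 8.63, 8.63 and 8.67 in irradiated cells, against 9.26, 9.16 and 8.96 in unirradiated cells. The irradiated arrays lay close together and the unirradiated ones ranged more widely, and the difference was -0.48 ± 0.08 (SE) with a limma adjusted p of 0.00522. NUP133, which tethers the complex to the curved membrane, had 7.63, 7.79 and 7.79 in irradiated cells, against 7.92, 7.91 and 7.89 in unirradiated cells. Those groups did not overlap, but with a difference of -0.17 the limma adjusted p was 0.148. NUP37, which attaches to NUP160, lay the other way, at 8.62, 8.58 and 8.60 in irradiated cells, against 8.51, 8.47 and 8.39 in unirradiated cells (difference 0.14, limma adjusted p 0.186). The stem gene NUP107, with NUP160, NUP43 and SEH1L, whose product also serves in the GATOR2 complex of nutrient sensing, had differences of -0.07, -0.04, 0.12 and 0.06 with overlapping groups.

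On the cytoplasmic face 0 of 7 members were called by limma, beside 14.5% of all genes. Of the 7, 3 had an unadjusted p under 0.05 and groups that did not overlap. Among all genes 29.8% had such a p and 34.7% did not overlap. NUP214, an FG protein that binds the export receptor XPO1 and the helicase DDX19, had log2 intensities of 10.68, 10.59 and 10.64 in irradiated cells, against 10.46, 10.40 and 10.40 in unirradiated cells. At a difference of 0.22 ± 0.07 (SE) it stood just outside the threshold (limma adjusted p 0.0533). NUP98, whose transcript encodes both the FG protein NUP98 and the Y complex subunit NUP96, had 9.89, 9.95 and 9.99 in irradiated cells, against 9.78, 9.80 and 9.77 in unirradiated cells (difference 0.16, limma adjusted p 0.128). GLE1, which activates the helicase that strips export factors from mRNA, differed in the other direction. It had 9.47, 9.35 and 9.48 in irradiated cells, against 9.59, 9.75 and 9.59 in unirradiated cells, a difference of -0.21 with a limma adjusted p of 0.0916. The differences of NUP88, a partner of NUP214, of NUP42, a partner of GLE1, and of the mRNA export factor RAE1 were 0.07, -0.06 and -0.02.

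RANBP2 encodes the large cytoplasmic filament protein that holds SUMO-modified RANGAP1 at the pore, and it had the largest standard error of the members, 0.14. Its values were 7.70, 7.48 and 7.51 in irradiated cells, against 7.27, 7.39 and 7.88 in unirradiated cells, where replicate 3 lay highest of all 6. Close copies of the gene exist in the RGPD family, so this probe set may share signal with them. A further 8 probe sets named RANBP2 together with RGPD genes, and 2 of them held identical values. Their differences lay between -0.04 and 0.04, with limma adjusted p over all probe sets from 0.838 to 0.997.

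The 5 inner ring members, which form the scaffold next to the channel, and both measured central channel members were uncalled in limma. Of all genes 14.5% were called, so few or no calls are to be looked for in groups of this size. NUP155, which connects the inner ring to the membrane, had log2 intensities of 10.78, 10.87 and 10.90 in irradiated cells, against 10.68, 10.71 and 10.70 in unirradiated cells. The groups did not overlap, and the difference of 0.16 ± 0.07 (SE) had a limma adjusted p of 0.141. NUP35, NUP93, NUP188 and NUP205 had differences from -0.06 to 0.01, and the FG proteins NUP54 and NUP58 of the channel had -0.07 and -0.02. At an unadjusted p under 0.05 in limma there was 1 inner ring member, NUP155, and 0 of the channel, beside 29.8% of all genes.

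**Figure D2:**
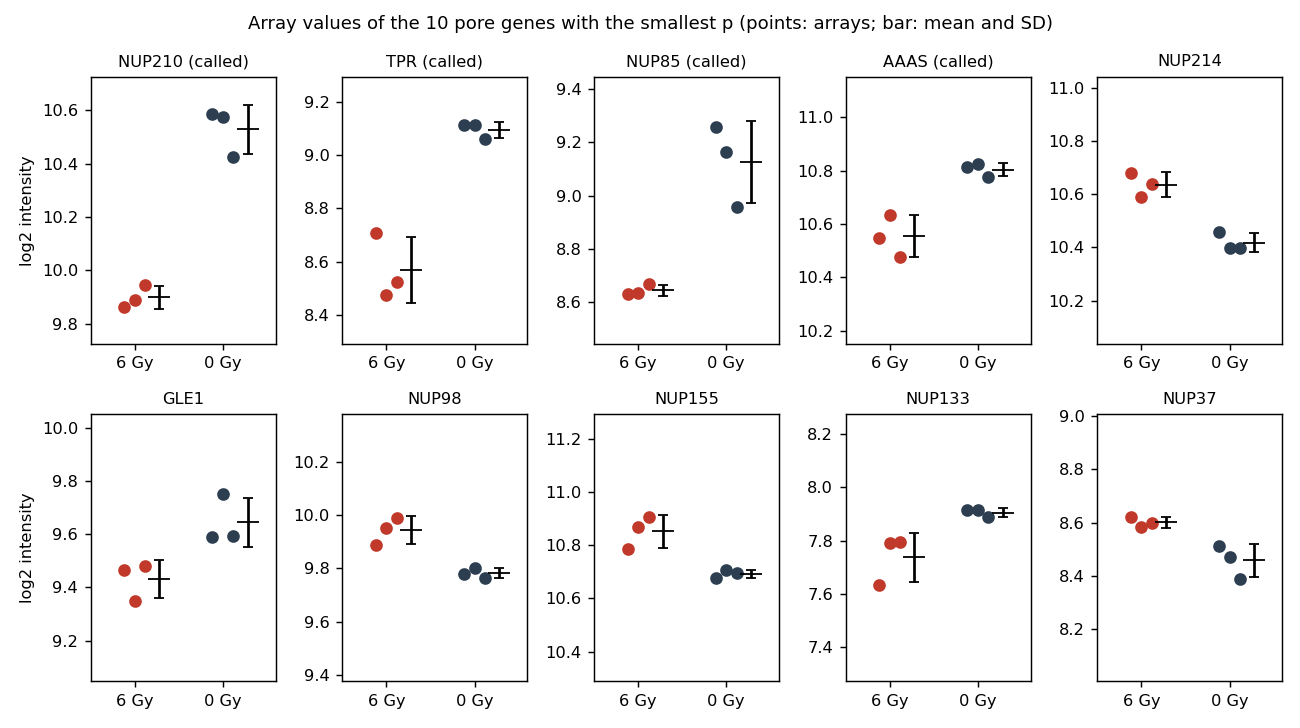
Log2 intensity on each array (points) for the 10 members with the smallest p, with the 6 Gy arrays left of the 0 Gy arrays and the mean and SD beside them (n = 3 per dose). Each vertical axis covers the same span, and in all 10 panels the groups do not overlap: 6 genes are lower at 6 Gy and NUP214, NUP98, NUP155 and NUP37 are higher.

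Values of irradiated and unirradiated cells were fully separated for 10 of the 27 members (37.0%), beside 34.7% of all genes. Of these 6 were lower, beside 15.7% of all genes, and 4 higher, beside 19% of all genes. The differences of the 23 uncalled members lay between -0.21 and 0.22. For 13 of them the 95% interval lay within 0.25 of 0 on either side, and over all 23 the intervals reached down to -0.46, for NUP50, and up to 0.36, for NUP214 and RANBP2. Larger changes lay outside these intervals, and a missed threshold does not show that a member was unchanged. All 27 members lay above the median of every array on all 6 arrays. The table has no detection calls, but these levels, at 7.27 or more, place the members away from the dim end.

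Of the 10 listed FG-repeat members 8 were measured, and 0 of them passed in limma, beside 14.5% of all genes. At an unadjusted p under 0.05 in limma, 2 of the 8 were higher (NUP214 and NUP98) and 0 lower, beside 29.8% of all genes in either direction. All 4 genes that fell were among the 19 measured members without FG repeats (21.1%), beside 8.18% of all genes called lower. With 8 and 19 genes these counts do not show a split by FG repeats, and their difference was not tested. Gene length in RefSeq and the log2 difference had a Spearman correlation of 0.25 over the 27 members and of -0.10 over 18389 genes. The length entered for RANBP2, 1.12e+06 bp, was far above that of the next longest member, NUP98 (122545 bp). The member value was not computed without it. These are correlations across genes of the same arrays, given as a description, and genes are not independent replicates.

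Probe sets shared with other genes gave the only signal for 3 members. AHCTF1 encodes ELYS, which brings the Y complex to chromatin when pores reform after mitosis, and its 2 probe sets also name a pseudogene. They differed by 0.02 and 0.05, with limma adjusted p over all probe sets of 0.896 and 0.732. POM121, an FG protein anchored in the pore membrane, shares 5 probe sets with its near copy POM121C and others, with differences from 0.08 to 0.22 and adjusted p from 0.224 to 0.495. The 1 probe set of NUP62, the core FG protein of the channel, also names IL4I1 and had log2 intensities of 7.02, 6.91 and 7.11 in irradiated cells, against 6.89, 6.91 and 6.69 in unirradiated cells (difference 0.19, limma adjusted p 0.285). How much of each signal comes from the pore gene cannot be told apart here.

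Genes that work with the pore were described through lists of their own. Cargo is carried by importins and exportins, whose direction is set by the Ran GTPase cycle. Of 18 importins measured, 3 rose and 3 fell in limma, 16.7% each way, beside 6.35% of all genes called higher and 8.18% lower. Their median difference was 0.02. IPO13, a receptor that carries cargo both ways, rose by 0.44 (limma adjusted p 0.00489), while IPO9, an importer of histones and other cargo, fell by 0.34, the transportin gene TNPO2 fell by 0.43 and the importin alpha gene KPNA5 fell by 0.34 (limma adjusted p 0.0137, 0.0193 and 0.0238). KPNA5 was dim, with values from 5.07 to 5.62. Calls ended for IPO9 without unirradiated replicate 3 (adjusted p 0.0501), for TNPO2 without unirradiated replicates 1 and 3 (0.0753 and 0.0557) and for KPNA5 without irradiated replicate 1 and unirradiated replicates 1 and 3 (0.0742, 0.0890 and 0.0625). The count of importins dropped to 0 lower without unirradiated replicate 3 and 1 lower without unirradiated replicate 1. The higher count was 1 without irradiated replicate 3, unirradiated replicate 1 or unirradiated replicate 2, and 2 without any 1 of the other arrays.

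Of 8 exportins, 1 fell (12.5%) and 0 rose in limma, beside 8.18% of all genes called lower and 6.35% higher. At an unadjusted p under 0.05 in limma 1 exportin was higher and 1 lower, beside 29.8% of all genes in either direction. The median difference of the exportins was -0.06. XPOT, the exporter of tRNA, fell by 0.40 (limma adjusted p 0.0346), and its call ended without irradiated replicates 2 and 3 (adjusted p 0.0615 and 0.0934) and without unirradiated replicates 2 and 3 (0.122 and 0.101). XPO1, the main protein exporter, differed by -0.10 (limma adjusted p 0.337). Of 6 measured Ran cycle genes 0 were called by limma and 1 had an unadjusted p under 0.05, beside 29.8% of all genes. It was RANBP1, a Ran-binding cofactor (difference -0.23, limma adjusted p 0.0595, unadjusted p 0.00953). The 5 further pore-linked genes, SEC13, DDX19A, DDX19B, NUP62CL and NUP210L, had 0 calls in limma, 0 unadjusted p under 0.05 and differences from -0.07 to 0.13; the smallest p among them was that of NUP62CL, 0.152 before adjustment in limma.

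mRNA export factors package transcripts for passage through the pore. Of 16 measured, 8 fell and 0 rose in limma (2 higher at an unadjusted p under 0.05), and their median difference was -0.22. Their share of 50% called lower stands beside 8.18% of all genes. The list was chosen with earlier results of these data known, so this share is a description and not a test. THOC1 and THOC2, subunits of the THO complex that couples transcription to export, fell by 0.61 and 0.38, with limma adjusted p of 7.46e-04 and 0.00630. ZC3H11A and CHTOP, both linked to the same export machinery, fell by 0.40 each (limma adjusted p 0.00389 and 0.0168). The count of 8 fell to 4 and 5 without irradiated replicates 1 and 2 and to 3 without either unirradiated replicate 1 or 2, and CHTOP lost its call without any 1 of those 4 arrays (adjusted p up to 0.0647). THOC1, THOC2 and ZC3H11A kept theirs with each array left out in turn.

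Genes of the nuclear lamina and envelope encode the surroundings in which pores are set. Of 16 measured, 8 fell and 2 rose in limma, beside 8.18% of all genes called lower and 6.35% higher, with a median difference of -0.25. SYNE2 and SUN2, which together link the nucleus to the cytoskeleton, fell by 0.68 and 0.57 (limma adjusted p 2.95e-04 and 0.00115). LMNB1, a lamin that lines the inner membrane, fell by 0.48, and TMPO, encoding lamin-binding LAP2 proteins, fell by 0.34 (limma adjusted p 0.00259 and 0.00918). All 4 kept their calls with each array left out in turn. The count lower was 4 without irradiated replicate 1 or unirradiated replicate 2 and 5 without unirradiated replicates 1 or 3, and the 2 that rose were EMD, encoding the inner membrane protein emerin, and TOR1A, encoding the ATPase torsin-1A, with differences of 0.36 each (limma adjusted p 0.0111 and 0.00922), named after their values were seen. No test compared the share of calls in these lists with that of the pore genes. The lists were chosen with earlier results of these data known, so their shares are descriptions.

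**Figure D3:**
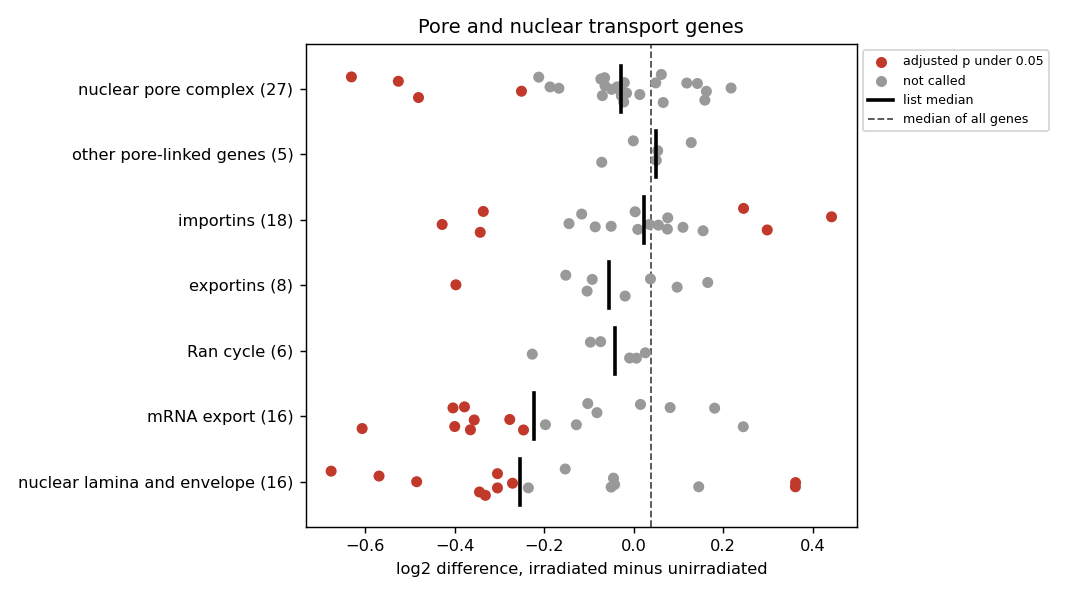
Log2 difference between irradiated and unirradiated cells for each measured gene (points) of the nuclear pore complex and 6 related lists, with the number of genes in brackets. Red points have an adjusted p under 0.05, black bars are list medians and the dashed line is the median of all genes, 0.04; the mRNA export and nuclear lamina medians lie at -0.22 and -0.25 and the pore median at -0.03.

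Array medians lay between 5.66 and 5.72 in irradiated cells and between 5.64 and 5.67 in unirradiated cells. Of 11 plasma cell markers 9 had a mean log2 intensity above 7, among them SDC1, CD38, TNFRSF17 and IRF4. In limma 3 of the 11 were called (27.3%), beside 14.5% of all genes. SLAMF7 rose by 0.55 (limma adjusted p 0.00271), CD38 fell by 0.42 (0.0127) and XBP1 fell by 0.23 (0.0405). SLAMF7 was dim, with values from 4.53 to 5.26 that lay below the median of every array, and CD27 also had a mean below 7. The call of CD38 ended without unirradiated replicate 2 (0.0550) and that of XBP1 without any array other than irradiated replicate 3 (up to 0.117). Median values of 4 T cell markers lay between 4.90 and 5.27 on irradiated arrays and between 4.54 and 4.92 on unirradiated arrays, those of 4 myeloid markers between 4.86 and 4.92 on irradiated arrays and between 4.64 and 4.87 on unirradiated arrays, and those of 4 fibroblast markers between 5.43 and 5.80 on irradiated arrays and between 5.32 and 5.48 on unirradiated arrays. ITGAM was the 1 myeloid marker with a mean above 7. The differences of all 4 T cell, all 4 myeloid and all 4 fibroblast markers were above 0, as were those of 11008 of all 18417 genes. Of 3 epithelial markers 2 were bright, with medians of the 3 between 9.78 and 10.04 on irradiated arrays and between 9.57 and 9.68 on unirradiated arrays. Of the markers of other cell types, EPCAM fell by 0.39 in limma (adjusted p 0.0154), ITGAM rose by 0.52 (0.00701) and COL1A1 rose by 0.23 (0.0399), while the epithelial marker KRT18 differed by 0.27 (0.0569). The call of EPCAM ended without unirradiated replicates 2 and 3 (0.0541 and 0.0511) and that of COL1A1 with any 1 array left out (0.0576 to 0.113). The part of these markers in the values of the pore genes was not tested.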

How the data were processed

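RNA of 6 samples was measured on 1-colour arrays. Extraction used Trizol and the label was biotin, per the labels' protocols. The authors deposited 33297 values per array, read here as log2 intensities; the base is inferred from their range. How they were normalized and background-corrected is not given in the sources used here, so levels are relative to the bulk of each array.

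By the platform annotation, 19460 probe sets had 1 gene symbol, 1754 several and 12083 none. Where a gene had several, the brightest was used, which gave 18417 genes. Irradiated and unirradiated arrays were compared with limma 3.58.1 (lmFit, eBayes) in R 4.3.3, two-sided, without a covariate or filter, and p was adjusted by Benjamini-Hochberg over all genes at 0.05. Shared probe sets were fitted over all 33297. Precision is limited by the number of arrays. Only the limma fit was tested on simulated data, with independent normal noise. Recovery was required there only for changes larger than those of the members. Figures used Python 3.11.15 with matplotlib 3.10.9. Promoters came from RefSeq, GRCh38.p14.

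The members and lists were chosen with earlier results of these data known, and the motifs and contrast promoter after values were seen. Array values are given for called members and the 6 next by p, for their partners, and for RANBP2 and NUP62. Of related lists the rule was to name at most 4 called genes, or the 1 with the smallest p. XPO1, EMD, TOR1A and the further pore-linked genes were named beyond this rule. Alternatives were the sample number as a block, each array left out, no dim genes, quantile normalization, median subtraction, an intensity trend with robust prior, array weights, the mean of probe sets, a threshold of 0.01 and, added later, a fit over all probe sets.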

Additional observations from a re-analysis of the deposited data

How the results depend on the processing

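Of the members, NUP210, TPR and NUP85 were called lower under every alternative fit tried at 0.05. Each measured member had 1 probe set, so the mean of probe sets could not change its values. Leaving out the dimmest genes also kept the members' differences and changed only the estimate of spread and the adjustment. The number of members lower was 3 to 4 with 1 array left out, 5 with an intensity trend and robust prior (GLE1 added) and 4 or 3 otherwise, with 3 in a fit over all probe sets that was added after seeing the data. The number higher was 0 with any 1 array left out, 1 without the dimmest genes and with array weights (NUP214 in both) and 2 with the intensity trend (NUP214 and NUP155). The members' median ran from -0.06 to 0.01 with 1 array left out. Over all genes, 852 to 1324 were lower and 619 to 887 higher with 1 array left out; the count lower moved by over 1.5 times without irradiated replicate 1 (999) and unirradiated replicates 1 and 2 (916 and 852), and the count higher without unirradiated replicates 1, 2 and 3 (668, 619 and 649). At an adjusted p under 0.01, 693 were lower and 384 higher. With a replicate block for the sample number, 765 genes were higher, 3 members were lower and 0 higher, AAAS lost its call (adjusted p 0.0681), and the mRNA export and nuclear lamina lists each had 5 lower. Deviations of same-numbered samples correlated at -0.04, 0.10 and -0.11, and the labels give no pairing beyond the number, so whether same-numbered samples share a culture or batch is not known. With array medians subtracted or quantile normalization the members' calls were the same in number, 4 lower and 0 higher, and the median of all genes was 0.01 with array medians subtracted and 0.04 with quantile normalization, as it was without either. The causes of these differences were not tested. Some fits also held fewer arrays or genes, and the part of that was not told apart from the part of the arrays or genes left out.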
